A study of Mus musculus with 10 samples.

Results

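The Rab genes encode the largest family of small GTPases, the membrane switches that direct vesicle traffic, and they were compared in dendritic cells from Ptbp1-deficient and wild-type (WT) mice. Members were taken by symbol alone, as every gene of the count table named Rab plus a number and at most one lower-case letter, or Rab plus a number, l and a number. The rule found 50 of the table's 19178 genes, and 49 of them had enough counts to be tested. Another 9 mouse genes with such symbols (Rab3b, Rab3c, Rab9b, Rab15, Rab17, Rab25, Rab27b, Rab40b and Rab42) were not analysed here.

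A Rab protein is active when bound to GTP and inactive when bound to GDP. Exchange factors (GEFs) load it with GTP, GTPase-activating proteins (GAPs) bring about hydrolysis, and effectors such as tethers and motor adaptors bind the active form. Lipid anchors added by a prenylation and escort machinery hold the protein on its membrane, and GDP dissociation inhibitors (GDIs) take it off again. Each compartment carries its own members, for example Rab1 and Rab2 between the endoplasmic reticulum (ER) and the Golgi, Rab5 on early endosomes, Rab11 on recycling endosomes and Rab7 on late endosomes. In dendritic cells, which present antigen to T cells, this traffic takes internalised antigen to the compartments where peptides are loaded onto MHC molecules.

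Poly(A) RNA was sequenced in 5 libraries of Ptbp1-deficient and 5 libraries of WT dendritic cells, all from mice aged 8 to 10 weeks. The product of Ptbp1, polypyrimidine tract-binding protein 1, regulates splicing. The labels give no strain, sex, tissue of origin, sorting scheme, allele or Cre driver, nor whether every library is a separate mouse, so p-values measure the spread between these libraries only. Counts in genes ran from 61759378 to 92697815 in the deficient libraries and from 50516163 to 66153758 in WT. Ptbp1 itself stood at 74.4 ± 1.08 CPM in deficient libraries and 294 ± 21.1 CPM in WT (SD, n = 5 each). Levels below are read counts scaled to library size as CPM, with TMM normalisation, mean ± SD over the 5 libraries of a group. A gene is called higher or lower at an adjusted p under 0.05, where adjusted p-values come from edgeR's quasi-likelihood test and the Benjamini-Hochberg method over the 18248 genes tested.

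Markers of other cells were checked because these are bulk libraries, in which fewer cells of a type and less RNA per cell cannot be told apart. All 12 dendritic cell markers listed were tested, with summed levels of 28874 to 31279 CPM in deficient libraries and 24744 to 30015 CPM in WT. Of these, 5 were higher (Zbtb46, Itgax, Irf8, Xcr1 and Clec9a) and 2 lower (Sirpa and Cd209a). Of 16 macrophage markers 12 were lower and none was higher, with sums of 513 to 1337 CPM in deficient libraries and 1721 to 4916 CPM in WT. WT replicates 1 and 5 held the most, 3357 and 4916 CPM, and deficient replicates 1 and 2 the least, 533 and 513 CPM. Of 8 natural killer (NK) cell markers 6 were higher, with sums of 171 to 250.1 CPM in deficient libraries and 31.6 to 81.99 CPM in WT. B cell markers summed to 690.1 to 735 CPM in deficient libraries and to 580.1 to 2033 CPM in WT, the highest in WT replicate 5, and 7 of 10 were lower. Of 8 T cell markers 1 was lower, and none of the 6 neutrophil, 2 mast cell and basophil and 4 platelet and erythroid markers was called. The smallest count of any gene in any library of the count table is 2, so no marker with a count row could be at 0.

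Upstream sequence is shown for Rab19 and Rab20, which were changed by at least 1.5-fold, and for the paralog pairs Rab5c and Rab5b, and Rab39 and Rab39b, whose members were called in opposite directions. Rab2a and Rab2b, and Rab6a and Rab6b, were also called in opposite directions and are not shown. Each run is the part of the 250 bases before the RefSeq start (GRCm38.p6) that precedes any GENCODE M21 exon, written 5′ to 3′ on the gene's strand. They are Rab19 at chr6:39381103-39381174 (plus), Rab20 at chr8:11478711-11478890 (minus), Rab5c at chr11:100738216-100738465 (minus), Rab5b at chr10:128696269-128696518 (minus), Rab39 at chr9:53706233-53706482 (minus) and Rab39b at chrX:75578232-75578481 (minus).
Rab19: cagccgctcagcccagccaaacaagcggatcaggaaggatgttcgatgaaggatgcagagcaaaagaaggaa
Rab20: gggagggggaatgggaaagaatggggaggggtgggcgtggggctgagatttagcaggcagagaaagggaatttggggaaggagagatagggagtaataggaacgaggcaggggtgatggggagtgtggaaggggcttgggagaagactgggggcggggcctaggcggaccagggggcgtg
Rab5c: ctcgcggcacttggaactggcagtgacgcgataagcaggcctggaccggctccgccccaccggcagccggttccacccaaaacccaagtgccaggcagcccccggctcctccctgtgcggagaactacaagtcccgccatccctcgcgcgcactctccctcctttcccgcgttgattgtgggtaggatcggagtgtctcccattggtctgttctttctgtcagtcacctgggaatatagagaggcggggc
Rab5b: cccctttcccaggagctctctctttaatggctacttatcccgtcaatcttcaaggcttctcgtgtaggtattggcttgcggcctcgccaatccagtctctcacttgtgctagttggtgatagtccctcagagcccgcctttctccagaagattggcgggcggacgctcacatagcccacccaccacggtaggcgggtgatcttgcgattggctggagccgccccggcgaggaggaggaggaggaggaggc
Rab39: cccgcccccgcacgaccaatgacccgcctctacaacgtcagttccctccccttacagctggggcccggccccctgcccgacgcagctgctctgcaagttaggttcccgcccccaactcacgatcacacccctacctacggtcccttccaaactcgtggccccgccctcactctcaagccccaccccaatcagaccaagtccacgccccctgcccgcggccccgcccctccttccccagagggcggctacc
Rab39b: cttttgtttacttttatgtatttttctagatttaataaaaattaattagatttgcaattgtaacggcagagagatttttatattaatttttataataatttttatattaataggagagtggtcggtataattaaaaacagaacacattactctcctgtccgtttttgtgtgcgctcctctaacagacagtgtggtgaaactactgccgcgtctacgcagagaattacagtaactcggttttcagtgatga
The letters searched on both strands of the whole 250 bases were GAAANNGAAA (interferon-stimulated response element), GGAANNGAAA (ETS-IRF composite element) and CACGTG (E-box), which do not contain one another. GAAANNGAAA was in 1 of 49 windows of 40 Rab genes, that of Rab19, and in 2.98% of 32851 windows of all genes. GGAANNGAAA was in the Rab11b window, against 2.3% of all windows, and CACGTG in windows of Rab5a, Rab20, Rab21, Rab23 and Rab27a, against 6.02%. The matches of Rab19 and Rab20 lie in their annotated first exons and are not printed, and the printed runs hold none, so they carry no capitals. GC content was 63.2% and 59.2% for Rab5c and Rab5b, and 68.8% and 31.6% for Rab39 and Rab39b. The Rab6b window lies within its annotated first exon and is not printed, and Rab7b, Rab37 and Rab38 have no entry.

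Of the 49 Rab genes tested, 19 were higher and 9 lower in Ptbp1-deficient libraries, and 21 were not called. That is 57.1% called against 45% of all genes tested, with 38.8% higher against 21.9% of all genes and 18.4% lower against 23.1%. The median log2 fold change was 0.09 over the Rab genes and -0.03 over all genes tested. All 5 deficient libraries lay above all 5 WT libraries for 14 Rab genes and below them for 8, together 22 of 49, where 33.4% of all genes tested showed no overlap (17.2% above and 16.2% below). Most differences were small. Of the 19 higher genes 12 differed by less than 1.25-fold and 4 by 1.25-fold to 1.5-fold, and of the 9 lower genes 5 differed by less than 1.25-fold. A difference of at least 1.5-fold was called for Rab37, Rab7b and Rab19 among the higher and for Rab38, Rab6b, Rab20 and the scarce Rab39b among the lower, 7 of 49 genes, against 18.3% of all genes tested (7.23% higher and 11.1% lower). Reads of the 50 genes made up 0.322% to 0.348% of gene counts in deficient libraries and 0.306% to 0.318% in WT, without overlap.

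**Figure D1:**
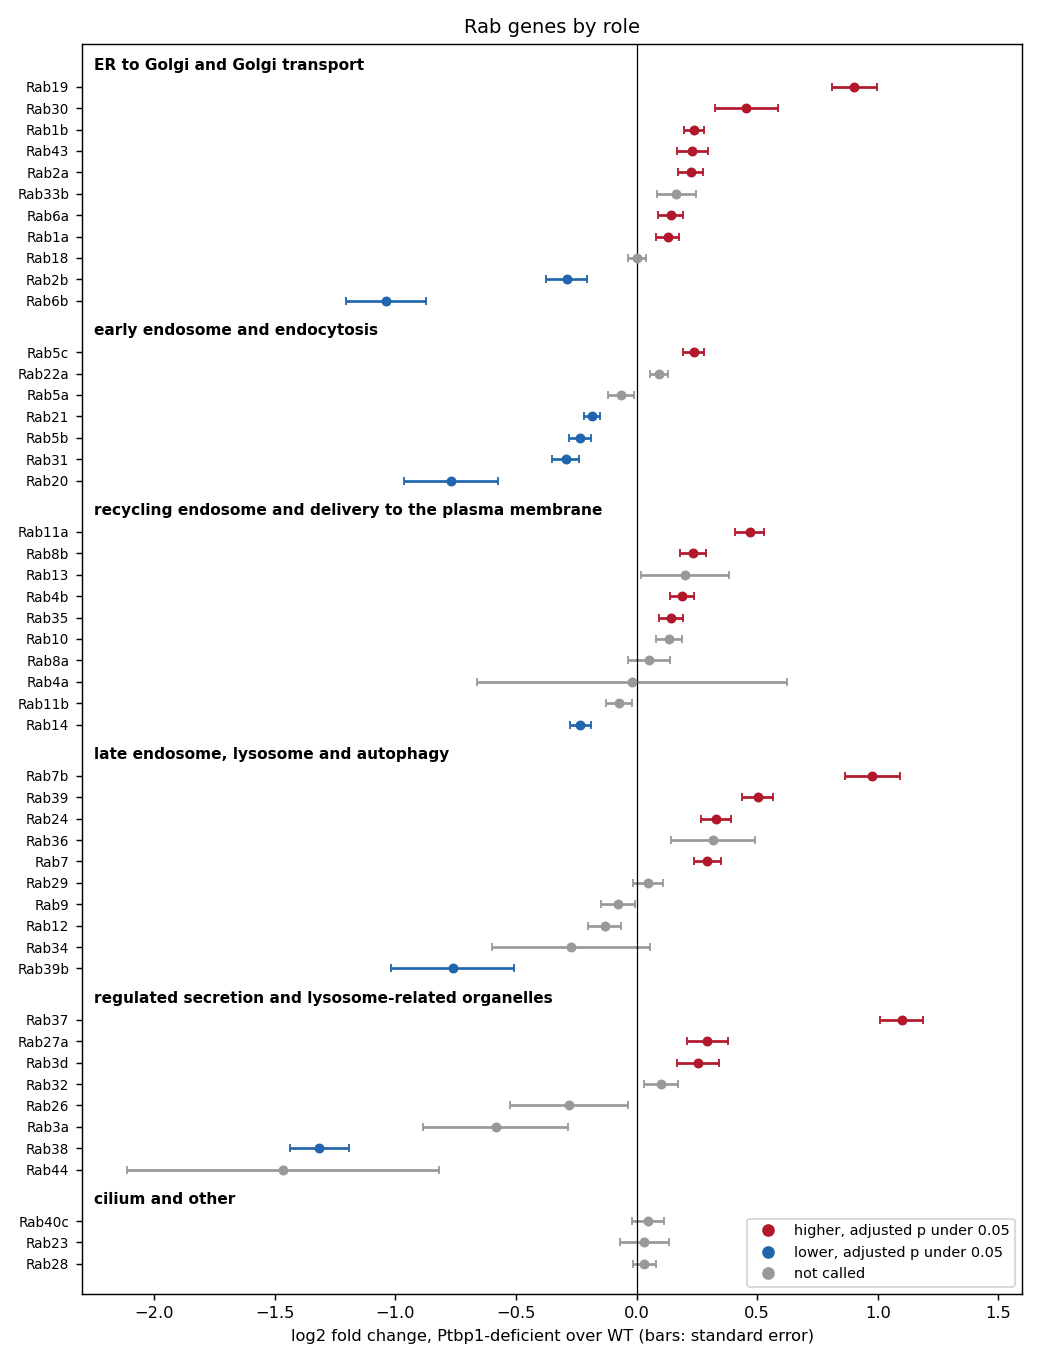
Log2 fold change (x axis, Ptbp1-deficient over WT) of the 49 tested Rab genes, grouped by role, with bars for the standard error and colour for the call at an adjusted p under 0.05. Most called genes lie within 0.5 of zero, and Rab37, Rab7b and Rab19 (higher) and Rab38, Rab6b, Rab20 and Rab39b (lower) lie farthest out among them.

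The counts by role below stand against 21.9% higher and 23.1% lower among all genes tested, and each role holds at most 11 tested members. In ER to Golgi and Golgi transport, 7 of 11 tested genes were higher and 2 lower. Rab19, a Golgi-associated member with few described functions (ENSMUSG00000029923, protein coding, GRCm38 chromosome 6, 39381175 to 39390380, plus strand), had 23.9, 26.2, 28.3, 30.7 and 25.7 CPM in deficient replicates 1 to 5, against 13.1, 15.9, 15.2, 15.8 and 12.1 CPM in WT replicates 1 to 5. Every deficient library lay above every WT library. The means were 26.96 ± 2.602 CPM in deficient libraries and 14.4 ± 1.74 CPM in WT. This was 1.87-fold, a log2 fold change of 0.90 with an SE of 0.093 (adjusted p = 1.6e-05).

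Rab6b moved the other way from its ubiquitous paralog Rab6a. Rab6b, a Golgi Rab best known from neurons (ENSMUSG00000032549, protein coding, chromosome 9, 103111787 to 103185276, plus strand), had 6.82, 5.5997, 6.06, 4.87 and 5.02 CPM in deficient libraries, against 13.2, 10.1, 9.86, 8.89 and 16.2 CPM in WT. The groups did not overlap, and WT replicates 1 and 5, the libraries with the most macrophage marker RNA, were the highest. The mean was 5.67 ± 0.797 CPM in deficient libraries and 11.6 ± 3.01 CPM in WT. This was 48.7% of the WT level, a log2 fold change of -1.04 with an SE of 0.165 (adjusted p = 3.6e-04). With the macrophage score (mean log2 CPM of the 16 markers) as covariate the log2 fold change was -0.85 (adjusted p = 0.019). Rab6a, which serves Golgi transport in all cells, stood at 59.3 ± 4.26 CPM in deficient libraries and 53.8 ± 1.89 CPM in WT (adjusted p = 0.043), with overlapping groups and the opposite sign in FPKM (log2 fold change -0.09, adjusted p = 0.15 by limma).

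Rab1a and Rab1b act in ER to Golgi traffic. Rab1b had 150.4, 145, 160.4, 151 and 148 CPM in deficient libraries, against 119.9, 128, 129.7, 136 and 127 CPM in WT, without overlap (log2 fold change 0.24, SE 0.042, adjusted p = 8.0e-04). The other higher genes were Rab1a, Rab2a, Rab43 and Rab30, a Golgi Rab. The Rab1a and Rab6a calls were lost in 14 and 12 of 23 other settings tried. Rab30 had 63.1 to 72.9 CPM in deficient libraries and 38.1 to 61.9 CPM in WT, where replicates 1 and 5 had 59.3 and 61.9 CPM and the other WT libraries at most 41.7 CPM. Its log2 fold change was 0.45 (adjusted p = 0.014), and 0.78 with the macrophage score as covariate. Rab2b, the scarcer Rab2 paralog, was at 3.91 ± 0.161 CPM in deficient libraries and 4.78 ± 0.274 CPM in WT (adjusted p = 0.016), although 64.0% of its exon bases overlap genes on the opposite strand. Rab18 and Rab33b were not called, and Rab33a, at 0.0803 and 0.153 CPM, was too scarce to test.

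**Figure D2:**
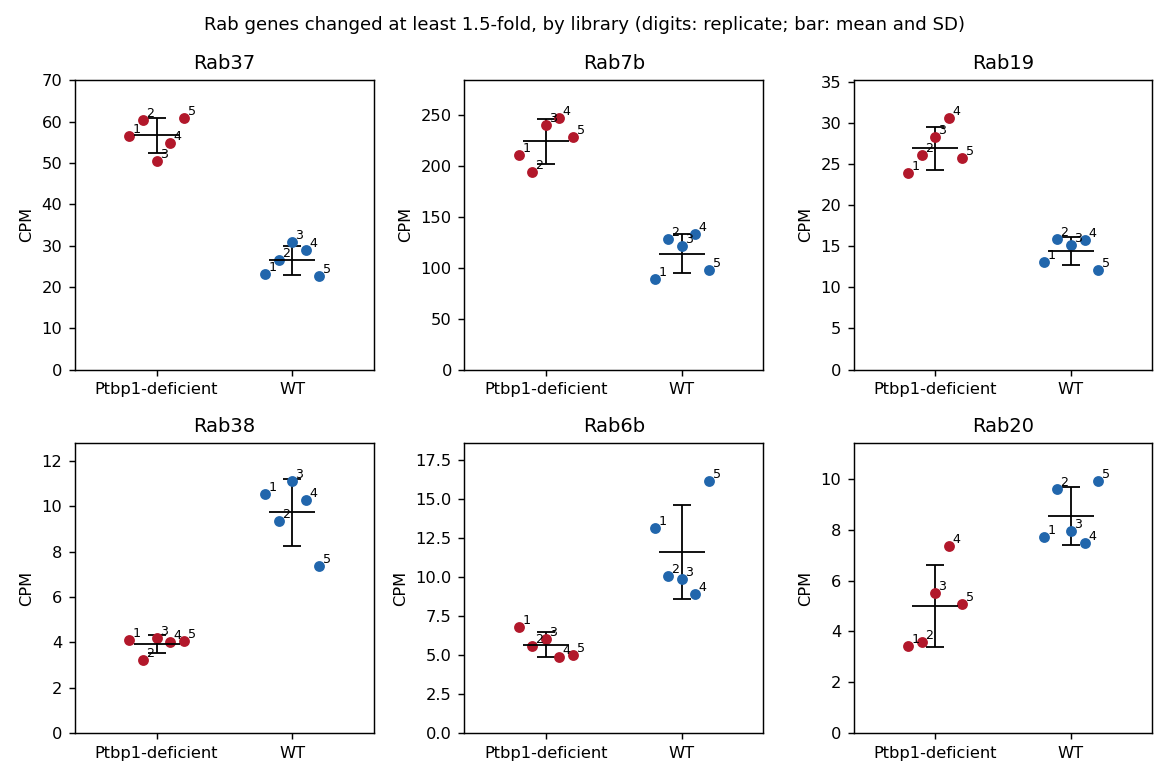
CPM (y axis, from 0) in each library for the 6 Rab genes changed at least 1.5-fold with a mean of at least 1 CPM in the higher group, Ptbp1-deficient left of WT, with the replicate number beside each point and lines for the mean and SD. In all panels except that of Rab20 the groups are apart by a clear gap, and in Rab20 deficient replicate 4 (7.35 CPM) comes close to WT replicate 4 (7.48 CPM).

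Of the 7 Rabs of early endosomes and endocytosis, 4 were lower and 1 higher. Rab20, a Rab of endosomes and maturing phagosomes (ENSMUSG00000031504, protein coding, chromosome 8, 11453518 to 11478710, minus strand), had 3.42, 3.598, 5.53, 7.35 and 5.07 CPM in deficient libraries, against 7.73, 9.59, 7.96, 7.48 and 9.92 CPM in WT. All deficient libraries lay below all WT libraries, by a narrow margin in replicate 4. The mean was 4.99 ± 1.603 CPM in deficient libraries and 8.54 ± 1.13 CPM in WT. This was 58.7% of the WT level, a log2 fold change of -0.77 with an SE of 0.195 (adjusted p = 0.007). Macrophage markers, summarised above, were lower in the same libraries, and with their score as a covariate the Rab20 difference did not pass (log2 fold change -0.30, adjusted p = 0.25). The exons of Rab20 share 25.6% of their bases with a long noncoding RNA on the opposite strand.

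The Rab5 paralogs, which control fusion of early endosomes, split by gene. Rab5c, the highest of them in FPKM, had 223, 221, 245, 243 and 232 CPM in deficient libraries, against 185, 199, 205, 203 and 197 CPM in WT, all deficient libraries above all WT (log2 fold change 0.24, SE 0.044, adjusted p = 0.0011). Rab5b had 98.4, 92.6, 101, 99.1 and 96.9 CPM in deficient libraries, against 117, 116, 121, 115 and 105 CPM in WT, all below (log2 fold change -0.24, SE 0.045, adjusted p = 0.0012). Rab5a was at 47.3 ± 0.689 CPM in deficient libraries and 49.5 ± 3.96 CPM in WT (adjusted p = 0.35). Rab21, which takes part in integrin endocytosis, stood at 172 ± 3.34 CPM in deficient libraries and 196 ± 5.11 CPM in WT (adjusted p = 8.9e-04), and its groups did not overlap. Rab31, a Rab5-subfamily member of the trans-Golgi network and endosomes, stood at 31.3 ± 1.91 CPM in deficient libraries and 38.4 ± 2.61 CPM in WT (adjusted p = 0.0015). Its difference did not pass with the macrophage score as covariate (log2 fold change -0.15, adjusted p = 0.078). Rab22a was not called.

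Among Rabs of recycling endosomes and delivery to the plasma membrane, 4 of 10 were higher and 1 lower. Rab11a, which defines the recycling endosome, had 96.6, 94.1, 108, 116 and 102 CPM in deficient libraries, against 68.7, 75.9, 74.96, 77.6 and 76.1 CPM in WT. The groups did not overlap (1.38-fold, log2 fold change 0.47, SE 0.060, adjusted p = 7.1e-05). Its paralog Rab11b was at 103 ± 8.19 CPM in deficient libraries and 109 ± 4.11 CPM in WT (adjusted p = 0.31). Rab8b, of exocytic traffic, had 239.9, 243, 266, 289 and 263 CPM in deficient libraries, against 208, 226, 229.5, 228 and 216 CPM in WT, all above (log2 fold change 0.23, SE 0.055, adjusted p = 0.0046). Rab4b and Rab35, of fast recycling, were higher by 1.14-fold and 1.104-fold (adjusted p = 0.0093 and 0.039). The Rab35 call was lost in 16 of 23 other settings, among them leaving out any of the 5 deficient libraries, and with the macrophage score its log2 fold change was 0.09 (adjusted p = 0.37). The Rab4b call was lost with that covariate (adjusted p = 0.10), without deficient replicates 1 and 2, and in FPKM. Of the Rab4b exon bases, 65.0% also belong to other annotated genes on the same strand, chiefly Gm21983, which leaves its count uncertain.

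Rab14, of traffic between the Golgi, endosomes and the surface, was the lower gene of this role. It had 168, 174, 168, 171 and 178 CPM in deficient libraries, against 218, 204, 201, 201 and 186 CPM in WT, without overlap (log2 fold change -0.23, SE 0.044, adjusted p = 0.001). Rab8a, Rab10, Rab11b, Rab13 and Rab4a were not called. Rab8a was at 217 to 238 CPM in deficient libraries and at 235 to 257 CPM in WT replicates 2, 3 and 4, with 184 and 188 CPM in WT replicates 1 and 5. Rab4a was at 0.2201 to 0.459 CPM in deficient libraries and at 0.0969 to 0.151 CPM in WT, apart from WT replicate 5 with 1.23 CPM. That library decided the sign: the log2 fold change was -0.02 with it (adjusted p = 0.98) and 1.36 without it (adjusted p = 0.0051).

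Of 10 Rabs of late endosomes, lysosomes and autophagy, 4 were higher and 1 lower. Rab7b, which acts between late endosomes and the trans-Golgi network and in Toll-like receptor traffic (ENSMUSG00000052688, protein coding, chromosome 1, 131688695 to 131715439, plus strand), had 210.4, 194, 240.4, 247 and 229 CPM in deficient libraries, against 88.9, 128, 121, 133 and 97.7 CPM in WT. The lowest deficient library was well above the highest WT library, and WT replicates 1 and 5 were the lowest of all. The means were 224 ± 22.02 CPM in deficient libraries and 114 ± 19.4 CPM in WT. This was 1.97-fold, a log2 fold change of 0.98 with an SE of 0.112 (adjusted p = 3.5e-05), and with the macrophage score as covariate the log2 fold change was 0.96. Rab7, the general Rab of late endosomes, had 300.2, 287, 339.6, 331 and 328 CPM in deficient libraries, against 239, 258, 262, 277 and 258 CPM in WT, a log2 fold change of 0.29 with an SE of 0.056 (adjusted p = 0.0013). These groups did not overlap either.

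Rab39, of late endosomes and phagosomes, had 19.6, 19.3, 19.95, 22.8 and 20.2 CPM in deficient libraries, against 15.02, 14.05, 15.3, 13.1 and 14.5 CPM in WT, all above (1.42-fold, log2 fold change 0.50, SE 0.066, adjusted p = 8.7e-05). Rab24, linked to autophagy, was higher at 24.6 ± 1.13 CPM in deficient libraries and 19.6 ± 1.46 CPM in WT (adjusted p = 0.001), and 62.4% of its exon bases overlap genes on the opposite strand, chiefly Prelid1. Rab39b, a paralog of Rab39 known from neurons, was scarce, with 13 to 35 counts per deficient library and 18 to 38 per WT library. It stood at 0.266 ± 0.0802 CPM in deficient libraries and 0.455 ± 0.0921 CPM in WT, with overlapping groups. The log2 fold change was -0.76 with an SE of 0.256 (adjusted p = 0.03). The Rab39b call was lost in 12 of 20 other settings, among them DESeq2, the replicate block and the macrophage covariate (adjusted p = 0.28). Rab9, Rab12, Rab29, Rab34 and Rab36 were not called.

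Regulated secretion and lysosome-related organelles held the widest range of differences, with 3 of 8 Rabs higher and 1 lower. Rab37, a Rab of secretory granules (ENSMUSG00000020732, protein coding, chromosome 11, 115091431 to 115162236, plus strand), had 56.6, 60.3, 50.6, 54.8 and 60.99 CPM in deficient libraries, against 23.2, 26.6, 30.9, 28.8 and 22.7 CPM in WT. Every deficient library was above every WT library. The means were 56.6 ± 4.27 CPM in deficient libraries and 26.5 ± 3.55 CPM in WT. This was 2.14-fold, a log2 fold change of 1.10 with an SE of 0.089 (adjusted p = 2.8e-06). NK cell markers were higher in the same libraries, and their part in this difference was not tested. Mast cells, the cells Rab37 is best known from, gave marker sums of 0.378 to 1.36 CPM in deficient libraries and 0.203 to 3.66 CPM in WT over 2 of 5 listed markers, the others not analysed here.

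Rab38, which works with Rab32 in the biogenesis of lysosome-related organelles such as melanosomes (ENSMUSG00000030559, protein coding, chromosome 7, 88430273 to 88491572, plus strand), had 4.11, 3.21, 4.18, 4.002 and 4.06 CPM in deficient libraries, against 10.6, 9.34, 11.1, 10.3 and 7.37 CPM in WT. No deficient library reached the lowest WT library, replicate 5. The mean was 3.91 ± 0.3999 CPM in deficient libraries and 9.74 ± 1.47 CPM in WT. This was 40.2% of the WT level, a log2 fold change of -1.31 with an SE of 0.122 (adjusted p = 7.7e-06). With the macrophage covariate it was -1.34. Rab32 had 93.8 to 115 CPM in deficient libraries and 89.3 to 106 CPM in WT and was not called (log2 fold change 0.10, adjusted p = 0.27).

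Rab27a, which docks secretory lysosomes and exosome-producing compartments, stood at 38.8 ± 2.59 CPM in deficient libraries and 31.7 ± 4.09 CPM in WT (adjusted p = 0.015). The Rab27a call was lost in FPKM and at a threshold of adjusted p under 0.01. Rab3d, of secretory granules, stood at 16.3 ± 0.633 CPM in deficient libraries and 13.6 ± 1.86 CPM in WT (adjusted p = 0.034), a call lost in 13 of 23 other settings (adjusted p = 0.053 with the macrophage covariate). Rab3a and Rab26, of synaptic and secretory vesicles, and Rab44, a large Rab of granulated cells, were not called. Rab44 had 0.4402 to 1.35 CPM in deficient libraries and 0.891 to 1.16 CPM in WT replicates 1 to 4, with 8.26 CPM in WT replicate 5. Neutrophil markers were also highest in that library, at 387 CPM. They summed to 53.2 to 111 CPM in deficient libraries and to 27.8 CPM in the lowest WT library. Sums of macrophage, B cell, mast cell and basophil, and platelet and erythroid markers were highest there too (4916, 2033, 3.66 and 73.9 CPM). The part of these cell types in the Rab44 value was not tested. The 3 members left, Rab23 and Rab28 of cilia and Rab40c of ubiquitin ligase complexes, were not called by edgeR's quasi-likelihood test, with 0 of 3 at an unadjusted p under 0.05 and 0 by DESeq2 or limma-voom, and Rab40c, with the highest CPM of the 3, was at 22.98 ± 1.57 CPM in deficient libraries and 22.2 ± 1.62 CPM in WT.

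**Figure D3:**
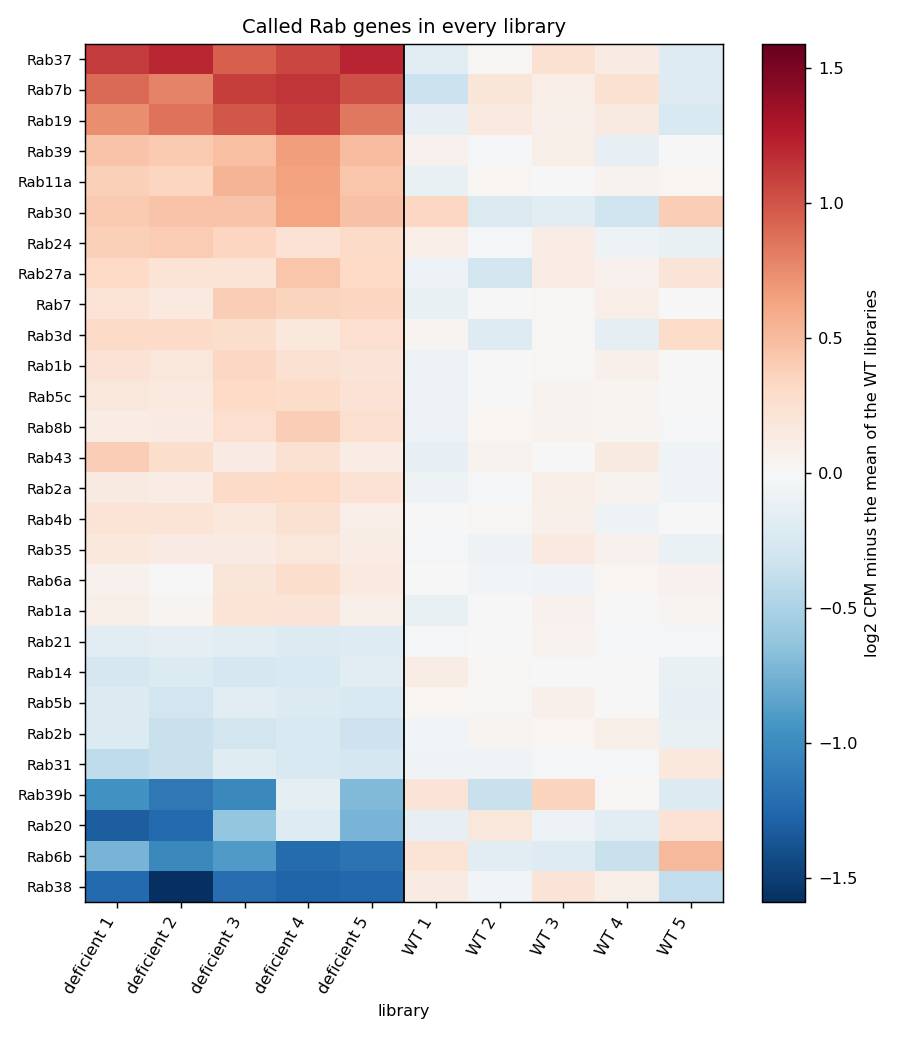
The 28 called Rab genes (rows) in each library (columns, Ptbp1-deficient left of WT), coloured by log2 CPM minus the mean of the WT libraries. Rab37, Rab7b and Rab19 are high in all 5 deficient libraries, Rab38 is low in all 5, and in Rab30 WT replicates 1 and 5 resemble the deficient libraries more than the other WT libraries do.

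Members of 14 paralog pairs were compared as a log2 ratio of their counts within each library, which does not depend on how libraries are scaled. The difference between groups passed for 12 pairs (exact permutation test, two-sided, n = 5 each, adjusted p under 0.05 over the 14 pairs), and in 9 of them the groups did not overlap. For those 9 the exact p was 0.00794, the smallest this design can give, and the adjusted p was 0.0123. Pairs of other genes were not compared, and 45% of all genes tested were called, so the 12 cannot be read as particular to Rab paralogs. The Rab5a, Rab5b and Rab5c pairs also share genes with one another. The log2 ratio of Rab32 to Rab38 was 4.74 ± 0.131 in deficient libraries and 3.33 ± 0.214 in WT. The ratio of Rab6a to Rab6b was 3.39 ± 0.270 in deficient libraries and 2.24 ± 0.324 in WT. Rab7 exceeded Rab7b by 0.50 ± 0.054 in deficient libraries and by 1.20 ± 0.196 in WT.

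Shifts were smaller in most other pairs without overlap. The log2 ratio of Rab5b to Rab5c was -1.25 ± 0.042 in deficient libraries and -0.78 ± 0.093 in WT, a difference of -0.47. Rab11a relative to Rab11b differed by 0.54, Rab2a relative to Rab2b by 0.51, Rab22a relative to Rab31 by 0.39 and Rab5a relative to Rab5c by -0.30. Rab39 relative to Rab39b differed by 1.28, on the low counts of Rab39b. Rab1a to Rab1b, Rab3a to Rab3d and Rab5a to Rab5b passed with overlapping groups. The pairs Rab4a with Rab4b (exact permutation p = 0.532) and Rab8a with Rab8b (exact permutation p = 0.103) did not pass. Of the 11 pairs with both members in the FPKM values, 10 passed by counts and 6 by ratios of FPKM, those lost being Rab1a with Rab1b, Rab2a with Rab2b, Rab3a with Rab3d and Rab22a with Rab31.

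**Figure D4:**
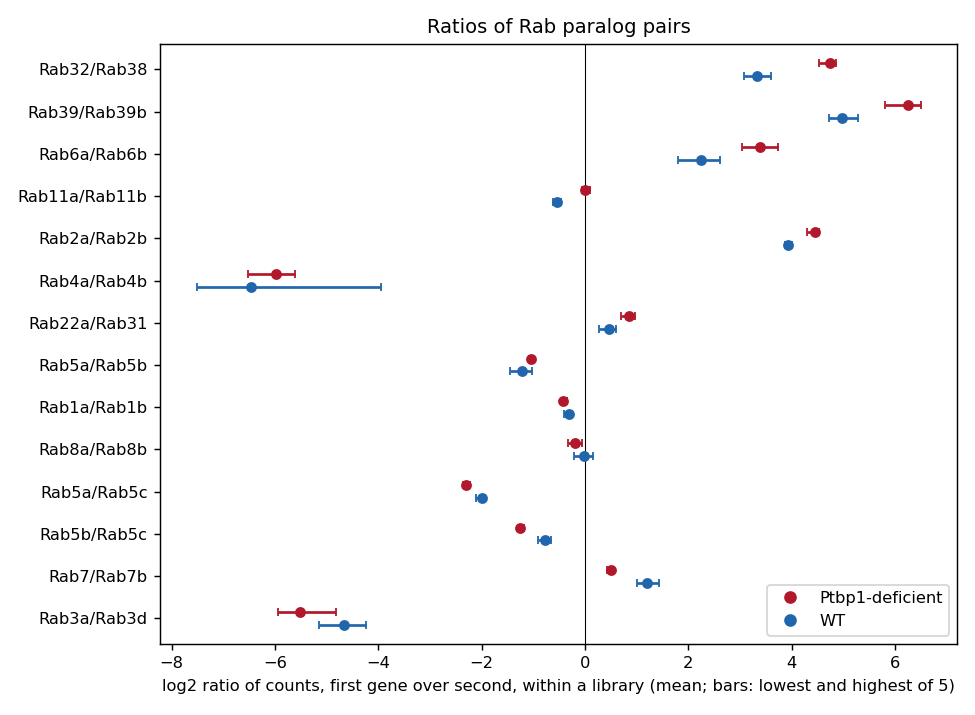
Mean log2 ratio of counts within a library for 14 Rab paralog pairs (x axis), with bars from the lowest to the highest of 5 libraries, Ptbp1-deficient above WT. The ratio of Rab32 to Rab38 is 4.74 in deficient libraries and 3.33 in WT, and the wide WT bar of Rab4a to Rab4b comes from WT replicate 5.

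Rabs described in cross-presentation, the loading of internalised antigen onto MHC class I, formed a separate list. Of 9 listed, 7 were tested, of which Rab11a, Rab27a, Rab39 and Rab43 were higher and Rab14 lower, against 21.9% higher and 23.1% lower among all genes tested. Rab43, known in mouse from cross-presentation by the cDC1 type of dendritic cell, had 134, 124, 112, 121 and 111 CPM in deficient libraries, against 93.6, 106, 102, 113 and 97.97 CPM in WT. Its groups overlapped by WT replicate 4 (log2 fold change 0.23, SE 0.063, adjusted p = 0.011), and 75.4% of its exon bases also belong to the annotated gene Gm45140 on the same strand, which leaves its count uncertain. The Rab43 call was lost with the macrophage covariate (log2 fold change 0.08, adjusted p = 0.39) and without deficient replicates 1 and 2 (log2 fold change 0.16, adjusted p = 0.063). The cDC1 markers Xcr1 and Clec9a were higher in the same libraries, at 376 ± 52.02 CPM and 341 ± 49.8 CPM in deficient libraries and at 117 ± 16.3 CPM and 215 ± 24.6 CPM in WT. Batf3, a cDC1 transcription factor on the same marker list, was not called. It stood at 108 ± 5.07 CPM in deficient libraries and 101 ± 6.19 CPM in WT (adjusted p = 0.105), with overlapping groups. The part of cDC1 cells in the Rab differences was not tested.

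In the deposited FPKM values, which are scaled to transcript length and so allow levels of different genes to be compared, 41 of the 50 Rab genes are listed. Rab7 was the most abundant, at 92.99 ± 12.4 FPKM in deficient libraries and 87.4 ± 4.37 FPKM in WT, followed by Rab1b (74.6 ± 2.31 and 66.3 ± 1.56 FPKM) and Rab5c (69.96 ± 3.49 and 64.9 ± 5.55 FPKM). Rab1b and Rab5c were within their spread of each other in WT. Rab7b stood at 46.4 ± 4.13 FPKM in deficient libraries and 25.1 ± 3.44 FPKM in WT, Rab37 at 24.7 ± 2.22 and 12.4 ± 1.43 FPKM, and Rab38 at 2.35 ± 0.188 and 6.11 ± 0.973 FPKM. Rab3a was the lowest listed, at 1.198 ± 0.109 FPKM in deficient libraries and 1.52 ± 0.269 FPKM in WT.

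The FPKM values gave fewer calls upward. limma on log2(FPKM + 1) called 10 of the 41 higher and 7 lower, where the counts gave 19 higher and 7 lower among the same 41. Over all 11968 genes listed it called 47.6%, with 2435 higher and 3261 lower. The median log2 fold change in FPKM was -0.0035 for the 41 Rab genes and -0.05 for all listed genes. The excess of higher Rab genes seen by counts was thus smaller in FPKM. Both measures called 16 in the same direction and 0 in opposite directions. Rab12, linked to lysosomal degradation of receptors, was called lower only in FPKM (log2 fold change -0.22, adjusted p = 0.043 by limma). Rab7, Rab5c, Rab27a, Rab30 and Rab35, higher by counts, were not called in FPKM (adjusted p = 0.47, 0.16, 0.062, 0.11 and 0.24 by limma). Neither was Rab2b, lower by counts (adjusted p = 0.15 by limma). A sign opposite to that of the counts appeared for Rab1a, Rab3d, Rab4b and Rab6a among those called by counts.

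**Figure D5:**
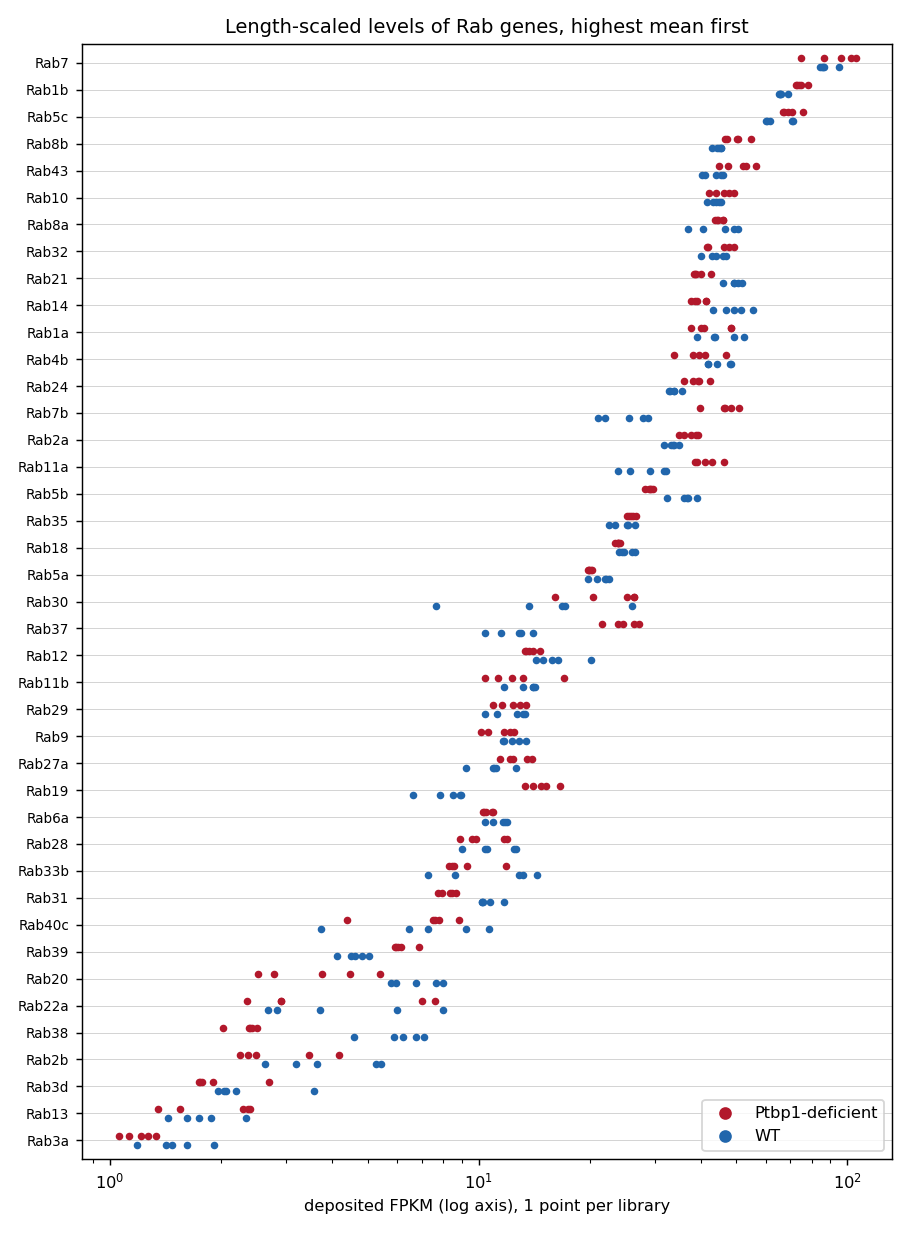
Deposited FPKM (x axis, log scale) of the 41 Rab genes listed there, highest mean first, with a point per library and Ptbp1-deficient points above WT points in each row. Rab7, Rab1b and Rab5c lead in both groups, and Rab7b, Rab37, Rab19 and Rab38 show the widest gaps between groups.

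Regulators of the Rab cycle were called about as often as other genes. The shares called were 48.8% of exchange factors, 44.7% of GAPs and 46.5% of effectors, against 45% of all genes tested, of which 21.9% were higher and 23.1% lower. Of 41 exchange factors 7 were higher and 13 lower, and of 38 tested GAPs 7 were higher and 10 lower. Among 8 genes of prenylation, escort and GDI, 4 were lower and 0 higher by edgeR's quasi-likelihood test, with 0 higher at an unadjusted p under 0.05 and 0 higher by DESeq2 or limma-voom. Of 43 tested effectors 8 were higher and 12 lower. The medians were -0.03, -0.04, -0.13 and -0.05 on the log2 scale for the 4 lists in that order, and -0.03 for all genes tested.

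Among exchange factors, Dennd1a and Dennd1b, which act on Rab35, were higher, Dennd1a at 61.7 ± 1.82 CPM in deficient libraries and 39.9 ± 0.797 CPM in WT (log2 fold change 0.63, adjusted p = 2.7e-07). Their paralog Dennd1c was not called, at 183 ± 11.8 CPM in deficient libraries and 202 ± 14.4 CPM in WT (log2 fold change -0.14, adjusted p = 0.066). Ccz1, of the complex that activates Rab7, was higher at 96.7 ± 1.76 CPM in deficient libraries and 73.7 ± 3.23 CPM in WT (adjusted p = 1.1e-05). Mon1a, of the same complex, was lower at 19.6 ± 0.577 CPM in deficient libraries and 23.5 ± 1.59 CPM in WT (adjusted p = 0.0026). Mon1b was not called (log2 fold change -0.17, adjusted p = 0.070). Rin2, which acts on Rab5, was lower at 43.3 ± 4.97 CPM in deficient libraries and 80.4 ± 10.2 CPM in WT (log2 fold change -0.89, adjusted p = 2.5e-05). The groups of Dennd1a, Dennd1b, Ccz1, Mon1a and Rin2 did not overlap.

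Among GAPs, Tbc1d30 differed most of those named, with 2.94, 2.85, 2.097, 1.32 and 1.74 CPM in deficient libraries, against 9.55, 10.8, 8.91, 10.4 and 7.56 CPM in WT, a log2 fold change of -2.11 with an SE of 0.208 (adjusted p = 1.1e-05). Tbc1d17, of recycling traffic, was at 61.7 ± 2.55 CPM in deficient libraries and 106 ± 7.15 CPM in WT (log2 fold change -0.78, adjusted p = 6.8e-07). Evi5, of Rab11 traffic, was lower and Tbc1d22b higher (log2 fold change -0.60 and 0.41, adjusted p = 9.3e-05 and 4.5e-05).

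Lower genes of the prenylation and escort list included Rabac1, a Rab acceptor of the Golgi, and the escort protein genes Chm and Chml. Rabac1 was at 53.7 ± 3.12 CPM in deficient libraries and 73.9 ± 4.86 CPM in WT (adjusted p = 4.4e-05), and Chm at 42.99 ± 2.12 CPM in deficient libraries and 47.2 ± 1.09 CPM in WT (adjusted p = 0.02). Among effectors, the Rab6 motor adaptor Bicd2 was higher at 161 ± 9.496 CPM in deficient libraries and 109.5 ± 9.29 CPM in WT (log2 fold change 0.56, adjusted p = 3.2e-05). The Rab5 effectors Appl2 and Rabep2 were lower (log2 fold change -0.64 and -0.38, adjusted p = 2.0e-05 and 3.2e-05), as was Vps39 of the HOPS tether that binds Rab7 (log2 fold change -0.31, adjusted p = 1.1e-04).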

How the data were processed

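Poly(A) RNA of 10 mouse dendritic cell libraries was sequenced as paired 150 bp reads, per the labels' protocols. The authors deposited unnormalized counts per gene and FPKM values. HISAT2, StringTie and DESeq2 are named, without versions, in the submitters' processing notes, which also name GRCh38 although the deposited identifiers are mouse. Neither the counting tool nor a strand setting is given in the sources used here, so sense and antisense reads cannot be told apart. Reads outside genes (17.2% to 22.2% of a library's counts), ambiguous reads (1.78% to 1.94%) and reads that were not unique stayed out of library sizes and tests. Of 19178 identifiers, 19035 matched a symbol, from GENCODE M21 (GRCm38) or, where that gave none, from a second list of gene names. Repeated identifiers in the FPKM values, 10 of them, were summed.

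Counts were filtered with filterByExpr, normalized by TMM and tested with edgeR 4.0.16 (R 4.3.3) with genotype as the only term, checked on simulated data. The members, gene lists, paralog pairs and alternatives were chosen with earlier results of these data known. Named Rab genes are those changed at least 1.5-fold at an adjusted p under 0.05 with a mean of 1 CPM or more in the higher of the groups, and the tested member of each role with the highest mean CPM. From each regulator list up to 4 changed genes with the smallest adjusted p are named, and 1 of these genes is not reported here. Other genes, among them further paralogs, Rab30, Rab4a, Rab44, Mon1a and Mon1b, were chosen after their values were seen. Paralog ratios used counts with a prior of 0.5 and exact permutation over 252 assignments. FPKM values were tested with limma 3.58.1 on log2(FPKM + 1). The alternatives were DESeq2 1.42.0, limma-voom, upper-quartile and RLE normalization, other filters, a replicate block, FPKM, a macrophage marker score as covariate (mean log2 CPM), a stricter threshold and leaving out libraries. Counts of each library total at least 50516163, and precision beyond counting error rests on 5 libraries a group.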

Additional observations from a re-analysis of the deposited data

Results flagged for a closer look

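In each group of 5 libraries, the highest and lowest value of every Rab gene was checked for a gap that sets it apart from the rest. Of 100 groups screened, 7 were flagged, where chance flags about 1 in 20. Among deficient libraries, replicate 4 was high for Rab30 (72.9 CPM, the others 63.1 to 65.4 CPM) and for Rab39 (22.8 CPM, the others 19.3 to 20.2 CPM), and replicate 2 was low for Rab38 (3.21 CPM, the others 4.002 to 4.18 CPM). Among WT libraries, replicate 1 was high for Rab12 (32.5 CPM, the others 25.3 to 27.2 CPM). WT replicate 5 was high for Rab31 (42.99 CPM, the others 36.7 to 37.7 CPM), Rab44 (8.26 CPM, the others 0.891 to 1.16 CPM) and Rab4a (1.23 CPM, the others 0.0969 to 0.151 CPM).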

How the results depend on the processing

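Of the 28 called Rab genes, 14 kept their call and direction in every setting tried, among them Rab37, Rab7b, Rab19, Rab38 and Rab6b. Rab6b is not among the FPKM values, so it was tried in 21 settings, and the other genes just named in 23. In the FPKM values with either pseudocount, 10 of 41 Rab genes, 4 GAPs, 3 effectors and 2435 of all 11968 genes tested were higher. With an adjusted p under 0.01, 12 Rab genes and 5 effectors were higher. With the macrophage score as a covariate 16 Rab genes were higher and 5 lower, and 3192 and 3284 of all 18248 genes tested. This lost Rab20, Rab31, Rab2b and Rab39b among the lower and Rab1a, Rab3d, Rab35, Rab43 and Rab4b among the higher, and gained Rab10 and Rab33b, and that score itself differed between groups. Ratios of FPKM passed for 6 of the 11 paralog pairs they allow. Upper-quartile normalization gave 6 effectors higher and 15 lower. Signs of called Rab genes changed in FPKM alone, and the cause was not tested. In FPKM with a pseudocount of 1 and of 0.1 they were those of Rab1a (-0.0828 and -0.0845), Rab3d (-0.17 and -0.23), Rab4b (-0.17 and -0.17) and Rab6a (-0.0918 and -0.10). Among genes not called, the sign of 5 changed in FPKM with a pseudocount of 1 (Rab18, Rab22a, Rab28, Rab33b and Rab40c) and of 8 with the covariate (Rab4a, Rab8a, Rab9, Rab11b, Rab26, Rab34, Rab40c and Rab44), and of at most 5 in any other setting. Rab40c was at -0.0035 with a pseudocount of 1, -0.0268 with the covariate and -0.0073 without deficient replicates 1 and 2. Rab4a was at 1.07 with limma-voom, 1.52 with the covariate, 0.65 with the replicate block and 1.38 without WT replicates 1 and 5, and between -0.2543 and 1.36 when libraries were left out in turn, the highest without WT replicate 5. Leaving out libraries gave 15 to 21 Rab genes higher and 8 to 9 lower, with 20 and 9 without WT replicates 1 and 5, and 17 and 8 without deficient replicates 1 and 2. Replicate numbers did not pair the libraries (correlations of same-numbered deviations -0.096 to 0.114, and 1 of 5 libraries closest to its own number). With the replicate number as a block 17 Rab genes were higher and 7 lower, and 3768 and 3770 of all genes. Depth limits Rab33a, Rab39b, Rab4a and Rab3a, each under 1 CPM on average.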
